A study of Arabidopsis thaliana with 14 samples.

Results

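The transcripts described here are those of the mitochondrial genome of Arabidopsis thaliana leaves, read by 57 probe sets, for 50 genes and loci, of the 22810 on the ATH1 array. A probe set counted as a member where the platform annotation gave it to 1 gene of the mitochondrial genome, or to 1 locus between AT2G07660 and AT2G07800 on chromosome 2, where a large piece of mitochondrial DNA has been inserted into the nuclear genome. The first kind comprised 23 probe sets of 16 genes and the second 34 probe sets of 34 loci, of which the reference table lists 6 as pseudogenes. The rule uses the annotation and no signal values. Another 12 probe sets, shared by a mitochondrial gene and another gene, were not members and are described apart.

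Plant mitochondria keep a small genome that encodes some subunits of the respiratory complexes and of the ATP synthase, proteins that mature cytochrome c, and ribosomal proteins, while the nucleus encodes the rest. Mitochondrial transcripts are cut from longer precursors, spliced, partly in trans between separate RNAs, and edited from C to U, and a poly(A) tail on them marks them for degradation rather than for stability. In leaves the mitochondria work beside the plastids, whose genome is transcribed and processed by related nuclear factors.

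The labels describe leaf RNA of 1 month-old plants of the Col-0 background, with 1 array per sample. There were 3 arrays of wild type with water, 3 of wild type after 14 days of drought, 3 labelled camta5 (camta5-a mutant) with water, 3 labelled camta5 after 14 days of drought, and 2 of a CAMTA5 overexpression line (OX-5) after 14 days of drought. CAMTA5 is a calmodulin-binding transcription factor, and the promoter that drives it in OX-5, and whether the mutant and OX-5 are each 1 line, are not stated in the labels. Watered OX-5 plants were not analysed here, and the genotype entry of camta5 water replicate 1 reads wild type, against its title, which was followed. The labels call the replicates biological without saying what was grown separately, so the p-values cover the spread among these arrays, which may be technical.

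The probe set of the CAMTA5 locus AT4G16150 read 115, 179 and 152 in watered Col-0 and 191, 172 and 154 on the watered arrays labelled camta5, a log2 difference of 0.21 ± 0.22 (SE, limma, adjusted p = 0.957). In drought it was not lower on the arrays labelled camta5 either, at 265, 284 and 306 against 232, 146 and 217 in Col-0 (0.51 ± 0.22, limma, adjusted p = 0.291), and where its probes lie relative to the mutation is not given. The gene rose in OX-5, to 402 and 290.4, by 0.76 ± 0.25 over droughted Col-0 (limma, adjusted p = 0.0198), but OX-5 was not called against the droughted arrays labelled camta5 (0.25 ± 0.25, limma, adjusted p = 0.435). The leaf marker RCA, the activase of Rubisco, read between 28324 and 41941 on every array, and the other fixed leaf markers had no probe set of 1 gene. Of the flower and seed markers none had one, and of 4 root markers 2 did, PYK10 and EXPA7, with a summed signal of 27.0 to 40.3 in watered and 65.2 to 91.7 in droughted Col-0, 21.1 to 48.2 and 65.9 to 117 on the arrays labelled camta5, and 15.0 to 158 in OX-5. PYK10 was higher in drought by 1.65 in Col-0 and by 1.93 on the arrays labelled camta5. EXPA7, too low to be tested, went the other way in Col-0, from 14.1, 11.3 and 24.1 with water to 10.1, 1.98 and 4.08 in drought. On the arrays labelled camta5 it read 43.8, 18.3 and 6.04 with water and 1.83, 2.55 and 10.2 in drought. The part of these markers in the results was not tested. The 2 OX-5 arrays stood apart. Their Spearman correlations with the other arrays over all tested probe sets were 0.704 to 0.813, against 0.855 to 0.978 among the others. Their low end was also raised, with a 40th percentile of the signal of 104 and 88.8, against 63.9 to 74.5 on the other arrays. OX-5 signals under that level carry little order, so the size of a fall to them is uncertain.

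Signals are the deposited MAS5 intensities, scaled to the same trimmed mean on every array, and were compared between groups within a probe set but not between probe sets. Differences are log2 of the signal plus 16, which understates changes of low signals, and a probe set was called at an adjusted p under 0.05 in a limma fit over all 15646 tested probe sets. To be tested, a probe set had to lie above the 40th percentile of its own array on 2 or more arrays. Of the 57 members 36 did, 20 of mitochondrial genes and 16 of chromosome 2 loci. On all 14 arrays 12 did so and on only 2 to 4 arrays 5, and a member that passes only where it is high must then differ. The 21 untested members, among them nad2, nad7 and the intron maturase matR, read between 1.01 and 134 and exceeded the percentile on 1 array or none.

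The members fall into complex I of the respiratory chain, the NADH dehydrogenase, with 15 probe sets of 8 nad genes. Complex IV, the cytochrome c oxidase, had 1 probe set each for cox1 and cox2. The 4 ccb genes, named ccmFN2 (ccb203), ccmB (ccb206), ccmFN1 (ccb382) and ccmFC (ccb452) in RefSeq, act in attaching haem to cytochrome c, and orfX, named mttB in RefSeq, encodes a membrane protein of a twin-arginine transport type. No probe set of 1 gene was annotated to cob, to an atp gene or to a mitochondrial rps or rpl gene. The chromosome 2 loci have no gene name in the files, and 19 of their 34 probe sets carry the suffix for a probe set matching more than 1 transcript. A signal from such a locus and one from the mitochondrial copy cannot be told apart. In bulk leaf RNA, fewer mitochondria and less RNA per mitochondrion cannot be told apart either.

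Array by array, the members' median was lowest in OX-5. Relative to the mean of watered Col-0, the median of the 20 mitochondrial probe sets was -0.13, -0.50 and -0.49 on the 3 Col-0 drought arrays. On the camta5 drought arrays it was 0.40, -0.08 and 0.15, so replicate 1 lay above all 6 watered arrays, which ranged from -0.14 to 0.22. In OX-5 it was -1.05 and -1.01. The 69 plastid-encoded genes, the other organelle genome on the array, had medians of -0.63, -1.12 and -0.94 in Col-0 drought, 0.14, -0.88 and -0.90 on the camta5 drought arrays and -2.09 and -2.20 in OX-5. The median of all tested probe sets lay between -0.0044 and 0.10 on every array.

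**Figure D1:**
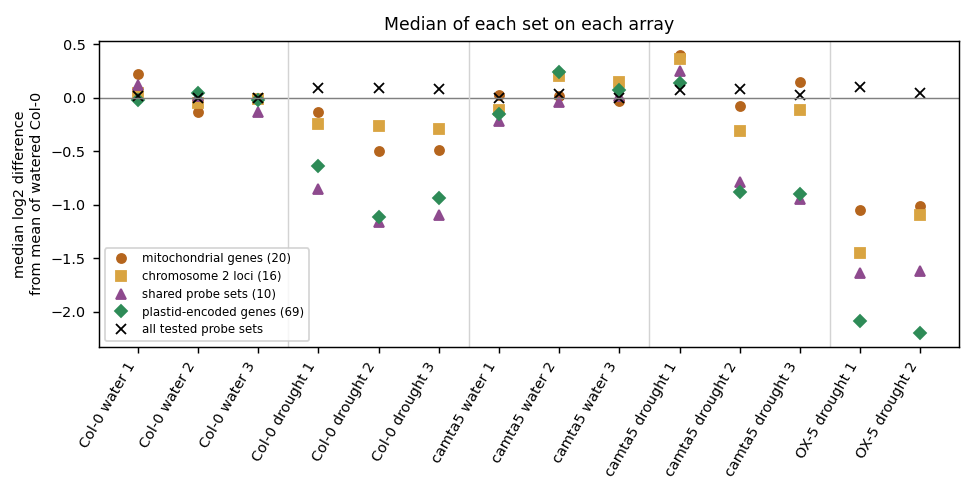
Median log2 difference from the mean of watered Col-0 for each array, with the array on the x axis and the log2 difference on the y axis, for 20 mitochondrial probe sets (circles), 16 chromosome 2 loci (squares), 10 shared probe sets (triangles), 69 plastid-encoded genes (diamonds) and all tested probe sets (crosses). The OX-5 arrays sit lowest in all 4 organelle sets, and camta5 drought replicate 1 sits at the level of the watered arrays or above it.

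The first comparison asked what 14 days of drought did in wild-type leaves. In droughted Col-0, cox1, orfX, ccb382, 1 of 7 nad1 probe sets and 4 chromosome 2 loci fell, by between 1.06 and 3.09 on the log2 scale, and no member was called higher. These were 8 of 36 tested members lower, where 11.7% of all tested probe sets were called lower, and 0 of 36 higher, where 15.6% of all were. The median over the members was -0.39, against 0.08 over all tested probe sets, with 23 members below 0 and 13 above. Of all tested probe sets 6989 lay below 0 and 8657 above.

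In complex IV, cox1, the catalytic core subunit, read 4233, 3199.9 and 3222 in watered and 1262, 1162 and 1133 in droughted Col-0. All 3 droughted values were under the lowest watered one, and the fall was 1.56 ± 0.29 (SE, n = 3 arrays a group, limma, adjusted p = 0.00174). The other subunit, cox2, which takes up electrons from cytochrome c, read 255, 225 and 215 with water and 204, 202 and 113 in drought. These ranges lay next to each other without overlap, with a difference of -0.43 ± 0.26 that was not called (limma, adjusted p = 0.241).

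In complex I, 1 of 13 tested probe sets was called lower, a share under the 11.7% of all tested probe sets. The nad4 signal, for a membrane subunit, was 1726, 2149 and 1861 with water and 1687, 1119 and 1037 in drought. Its droughted values were all under the watered ones, by 0.60 ± 0.26 in the mean, and it was not called (limma, adjusted p = 0.0963), except without Col-0 drought replicate 1 (0.0329) or camta5 drought replicate 1 (0.0453). For nad9, a subunit of the peripheral arm, the values of 455, 265 and 409.9 and 392, 386 and 381 overlapped and differed by 0.07 ± 0.26. nad4L and nad6, further membrane subunits, differed by -0.72 ± 0.30 and -0.60 ± 0.39, with overlapping groups and no call. The called one was the nad1 probe set 257323_at, at 97.0, 244 and 226 with water and 71.0, 33.9 and 45.7 in drought. It fell by 1.58 ± 0.54 (limma, adjusted p = 0.0408), a call that ended under 10 alternatives, with adjusted p from 0.0518 to 0.142. Its droughted replicates 2 and 3 lay under the 40th percentile of their arrays, which was 64.8 and 63.9.

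Among the cytochrome c maturation genes, 1 of 4 was called lower, where 11.7% of all tested probe sets were. The ccb382 signal was 1022, 662 and 834 with water and 339, 369 and 471 in drought, so the groups did not overlap. It fell by 1.06 ± 0.24 (limma, adjusted p = 0.00533). The other 3 differed by 0.63 (ccb203), -0.37 (ccb206) and -0.41 (ccb452), each with overlapping arrays. The transport gene orfX read 423, 453 and 416 with water and 145, 126 and 167 in drought. Every droughted value was under every watered one, and the signal fell by 1.47 ± 0.29 (limma, adjusted p = 0.00227).

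**Figure D2:**
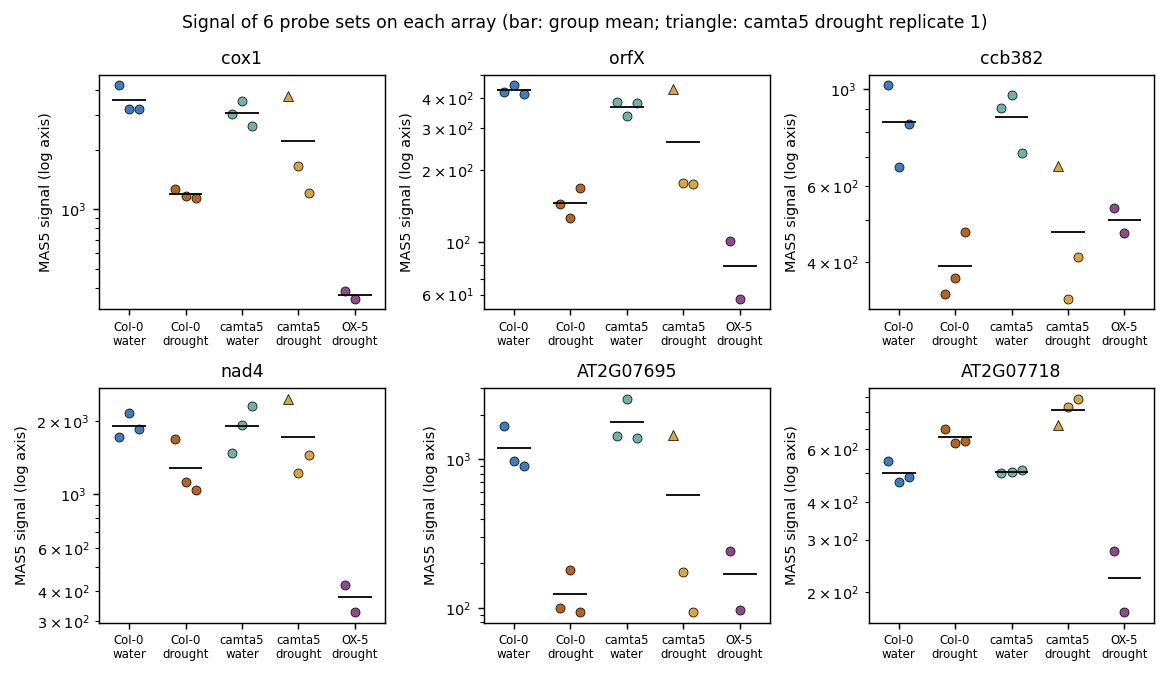
MAS5 signal (y axis, log scale) of cox1, orfX, ccb382, nad4, AT2G07695 and AT2G07718 in the 5 groups (x axis), with 1 point per array, a bar at the group mean, and a triangle for camta5 drought replicate 1. In cox1, orfX and AT2G07695 the triangle lies among the watered arrays while the other 2 droughted arrays labelled camta5 lie near droughted Col-0, and in nad4 and AT2G07718 both OX-5 arrays lie below all others.

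Among the chromosome 2 loci, 4 of 16 tested fell in droughted Col-0, where 11.7% of all tested probe sets did. The largest difference of all members was that of AT2G07695, which read 1690.3, 969 and 901 with water and 99.7, 182 and 94.2 in drought. It fell by 3.09 ± 0.69 (limma, adjusted p = 0.00462), with no overlap. AT2G07751 read 859, 1574 and 1131 with water and 386, 253 and 285 in drought and fell by 1.87 ± 0.49 (limma, adjusted p = 0.0115). AT2G07707 fell by 1.25 ± 0.26, from 825, 792 and 729.6 to 493, 259 and 253, and AT2G07708 by 1.09 ± 0.34, from 635, 597 and 691 to 340.4, 256 and 284. The call of AT2G07751 ended without Col-0 water replicate 2 (limma, adjusted p = 0.0545), and that of AT2G07708 ended without any 1 of the 3 watered arrays or droughted replicates 2 or 3 (limma, adjusted p from 0.0628 to 0.0949). The remaining 12 ranged from -1.25 (AT2G07773) to 0.39 (AT2G07718) without a call.

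On the arrays labelled camta5, drought lowered ccb382 and AT2G07695 and raised AT2G07718. These were 2 of 36 tested members lower, where 7.61% of all tested probe sets were lower, and 1 of 36 higher, where 8.67% of all were higher, so neither share exceeded that of all probe sets. The median over the members was -0.12, with 19 below 0 and 17 above. Over all tested probe sets it was 0.04, with 7263 below 0 and 8383 above. The droughted replicates disagreed, and in all 8 members that fell in Col-0 replicate 1 had the highest signal of the 3.

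cox1 read 3034, 3526 and 2625 on the watered arrays labelled camta5 and 3740.4, 1642 and 1212 on the droughted ones. Droughted replicate 1 was above all 3 watered arrays, while replicates 2 and 3 were under all of them, and the difference of -0.63 ± 0.29 was not called (limma, adjusted p = 0.155). For orfX the same arrays read 386, 338 and 382 and 437, 177 and 175, again with replicate 1 highest (-0.59 ± 0.29, limma, adjusted p = 0.181). ccb382 read 905, 972 and 715 with water and 667, 330.5 and 413 in drought. All 3 droughted values were under the watered ones, and it fell by 0.90 ± 0.24 (limma, adjusted p = 0.0213). AT2G07695 read 1428, 2569 and 1386 and 1470.0, 176 and 94.2, so its fall of 2.46 ± 0.69 (limma, adjusted p = 0.0259) came from replicates 2 and 3. AT2G07718 read 501, 503 and 512 with water and 725, 829 and 887 in drought. It was higher on every droughted array, by 0.67 ± 0.17 (limma, adjusted p = 0.0178).

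Replicate 1 was the highest of the 3 droughted arrays labelled camta5 in 23 of 36 tested members, against 6 for replicate 2 and 7 for replicate 3. It was at or above the lowest watered array labelled camta5 in 31 members, against 20 for each of the other two. These counts were not made over all tested probe sets, so a trait of the members cannot be told from one of the array. Replicate 1 also had the smallest median changes over the non-member probe sets called with drought in Col-0. Over 1823 other probe sets that were lower in droughted Col-0, its median difference from watered arrays labelled camta5 was -0.53, against -0.87 and -0.79 in replicates 2 and 3, and over 2441 that were higher it was 0.48, against 0.73 and 0.57. Over the same probe sets, Col-0 drought replicate 1 was also the least changed of its group. The medians of Col-0 drought replicate 1 were -0.79, against -1.36 and -1.06 in replicates 2 and 3, and 0.69, against 1.00 and 0.91. These probe sets were called from those same Col-0 arrays, so the Col-0 order is only a description. The part of camta5 drought replicate 1 in the drought comparison was measured by leaving it out. Then 8 of 36 members were lower and 1 higher, where 9.06% and 9.67% of all tested probe sets were. cox1 fell by 1.10 (limma, adjusted p = 0.00188), orfX by 1.00 (0.00825), AT2G07751 by 1.56 (0.0142), AT2G07773 by 1.68 (0.00384) and the nad5 probe set 257338_s_at by 1.67 (0.0282). AT2G07695 then fell by 3.58 and ccb382 by 1.18. Each of the 3 calls of the full comparison ended when 1 of the other arrays labelled camta5 was left out, with adjusted p up to 0.0648 for AT2G07718, 0.101 for ccb382 and 0.108 for AT2G07695.

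**Figure D3:**
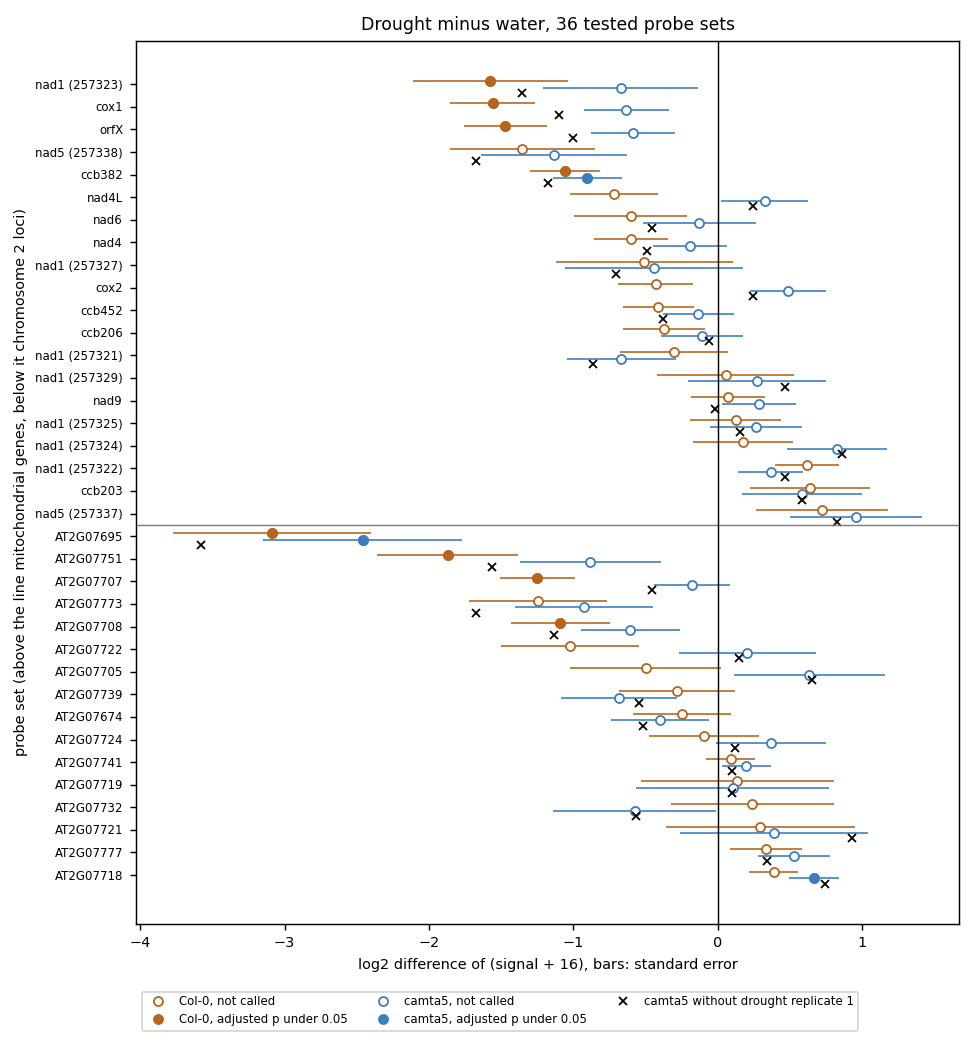
Drought minus water as a log2 difference of signal plus 16 (x axis) for each of the 36 tested members (y axis, mitochondrial genes above the line and chromosome 2 loci below it), in Col-0 and on the arrays labelled camta5, with standard errors as bars, filled points for calls, and crosses for the arrays labelled camta5 without drought replicate 1. No Col-0 call lies above 0, and in cox1, orfX, AT2G07751 and AT2G07708 the crosses lie nearer to the Col-0 points than the open points do.

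Whether drought acted differently in the 2 genotypes was tested as the difference of the 2 drought responses, and limma called no probe set of the array, so 0 of 36 members. At an unadjusted p under 0.05 there were 5 of 36 members, where 5.66% of all tested probe sets were. In all 5 the response on the arrays labelled camta5 was the less negative or more positive one: 1.07 ± 0.37 for AT2G07707, 1.04 ± 0.43 for nad4L, 0.93 ± 0.41 for cox1, 0.92 ± 0.37 for cox2 and 0.88 ± 0.41 for orfX. Their adjusted p were 0.841 to 0.878. Without camta5 drought replicate 1 these became 0.79, 0.96, 0.46, 0.68 and 0.47, and the median over the 20 mitochondrial probe sets went from 0.25 to 0.11.

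With water, the arrays labelled camta5 and Col-0 showed no called member by limma, and 0 of 36 at an unadjusted p under 0.05, where 6.39% of all tested probe sets were. The largest differences were those of AT2G07732 (1.17 ± 0.56) and AT2G07695 (0.59 ± 0.69), and the median over the members was 0.03. In drought, 0 of 36 members were called by limma, where 1.02% of all tested probe sets were higher on the arrays labelled camta5 and 0.441% lower. At an unadjusted p under 0.05 there were 7 of 36, where 15% of all tested probe sets were. The members' median was 0.34, with 31 above 0, and 0.14 without camta5 drought replicate 1. Over all 15646 tested probe sets the median was -0.03, with 7203 above 0, and -0.04 without that replicate. AT2G07707 read 930.4, 481 and 548 on the arrays labelled camta5 against 493, 259 and 253 in Col-0, a difference of 0.94 ± 0.26 (limma, adjusted p = 0.0946), which was called only without Col-0 drought replicate 1 (1.24, limma, adjusted p = 0.0102).

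In OX-5, compared with droughted Col-0, nad4, nad9, cox1, ccb452, ccb206, 3 of 7 nad1 probe sets, both nad5 probe sets and 5 chromosome 2 loci were lower, by between 0.91 and 2.27 on the log2 scale, while cox2 and 1 nad1 probe set were higher. These were 15 of 36 tested members lower, where 25% of all tested probe sets were lower, and 2 of 36 higher, where 21.7% of all were. Against the droughted arrays labelled camta5, 18 of 36 members were lower, where 22.5% of all were, and 1 higher, where 20.2% of all were. The higher nad1 probe set, part of both higher counts, passed the filter only on the 2 OX-5 arrays. It had to be high there to be tested, so its calls in these counts carry no further information. The members' medians were -0.84 and -1.05, against -0.04 and -0.02 over all tested probe sets. Both comparisons use the same 2 OX-5 arrays and are given side by side. The line and anything else that sets these 2 arrays apart over all probe sets cannot be told apart. With each array centred on its median, the calls over all tested probe sets against camta5 went from 3153 higher and 3513 lower to 2485 and 4194, with members at 1 higher and 18 lower before and after. Against Col-0 the calls over all went from 3395 higher and 3913 lower to 2838 and 4516, and those of members from 2 and 15 to 1 and 17. Quantile normalization gave members 2 higher and 18 lower against Col-0 and 0 and 19 against camta5.

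In complex I, nad4 read 424 and 328 in OX-5, against 1687, 1119 and 1037 in droughted Col-0 and 2475, 1218 and 1445 on the droughted arrays labelled camta5. Both OX-5 values were under all 12 other arrays, the difference from Col-0 was -1.70 ± 0.29 (n = 2 and 3 arrays, limma, adjusted p = 0.00023) and that from camta5 -2.09 ± 0.29 (5.14e-05). nad9, with 166 and 132 in OX-5, also lay under every other array. Its differences were -1.30 ± 0.29 (limma, adjusted p = 0.00191) and -1.58 ± 0.29 (0.000508). nad4L at 134 and 113 and nad6 at 127 and 57.2 lay inside the range of the other groups and were not called against either.

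In complex IV the subunits differed. cox1 read 384 and 352 in OX-5, under all 12 other arrays, by 1.64 ± 0.33 against droughted Col-0 (limma, adjusted p = 0.000882) and by 2.36 ± 0.33 against camta5 (5.58e-05). cox2 read 274 and 312, above all 3 droughted Col-0 arrays but inside the range of the droughted arrays labelled camta5. It was 0.75 ± 0.29 above droughted Col-0 (limma, adjusted p = 0.048) and -0.09 ± 0.29 from camta5. The cox2 call ended under 16 alternatives, median centring among them, with adjusted p from 0.0506 to 0.185.

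Among the cytochrome c maturation genes, ccb452 read 320.4 and 287 in OX-5 and ccb206 25.4 and 18.9, both under all other arrays. The ccb206 values, and the orfX values given below, were also under the 40th percentile of their arrays. ccb452 was lower by 1.15 ± 0.27 than droughted Col-0 (limma, adjusted p = 0.00299) and by 1.82 ± 0.27 than camta5 (0.000106). ccb206 was lower by 1.11 ± 0.32 (limma, adjusted p = 0.0104) and 1.41 ± 0.32 (0.00263), and these calls ended in 2 and 1 alternatives, with adjusted p up to 0.0546. ccb382, which fell with drought in Col-0, read 533 and 467 in OX-5 and was not called, at 0.35 ± 0.27 and 0.14 ± 0.27. orfX read 101 and 57.8, under all other arrays, and was called against camta5 (-1.46 ± 0.32, limma, adjusted p = 0.00228) but not against Col-0 (-0.79 ± 0.32, 0.0565), where 8 alternatives called it, median centring (0.0248) and quantile normalization (0.00532) among them.

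Of the chromosome 2 loci, AT2G07718 read 274 and 172 in OX-5 against 701, 632 and 640.2 in droughted Col-0 and 725, 829 and 887 on the droughted arrays labelled camta5. It thus stood lowest in OX-5 and highest in the other droughted groups, and was lower in OX-5 by 1.53 ± 0.19 (limma, adjusted p = 1.59e-05) and 1.82 ± 0.19 (3.89e-06). AT2G07708 read 47.7 and 82.6 and was lower by 1.96 ± 0.38 and 2.50 ± 0.38 (limma, adjusted p = 0.00078 and 0.000135). Both values lay under the 40th percentile of their arrays. AT2G07741, which differed by 0.09 ± 0.17 with drought in Col-0, read 233 and 178 against 467, 386 and 345 in droughted Col-0 and was lower by 0.91 ± 0.19 (limma, adjusted p = 0.00138). AT2G07773 was lower by 1.94 against Col-0 and AT2G07739 by 1.21, calls that ended in 1 and 6 alternatives with adjusted p up to 0.115. AT2G07695, with the largest fall in droughted Col-0, read 241 and 96.2 in OX-5 and was not called (0.32 ± 0.77 and -0.89 ± 0.77). Against camta5, AT2G07751 and AT2G07707 were also lower, by 1.84 and 1.55, and the call of AT2G07751 ended under 2 alternatives (limma, adjusted p up to 0.173).

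**Figure D4:**
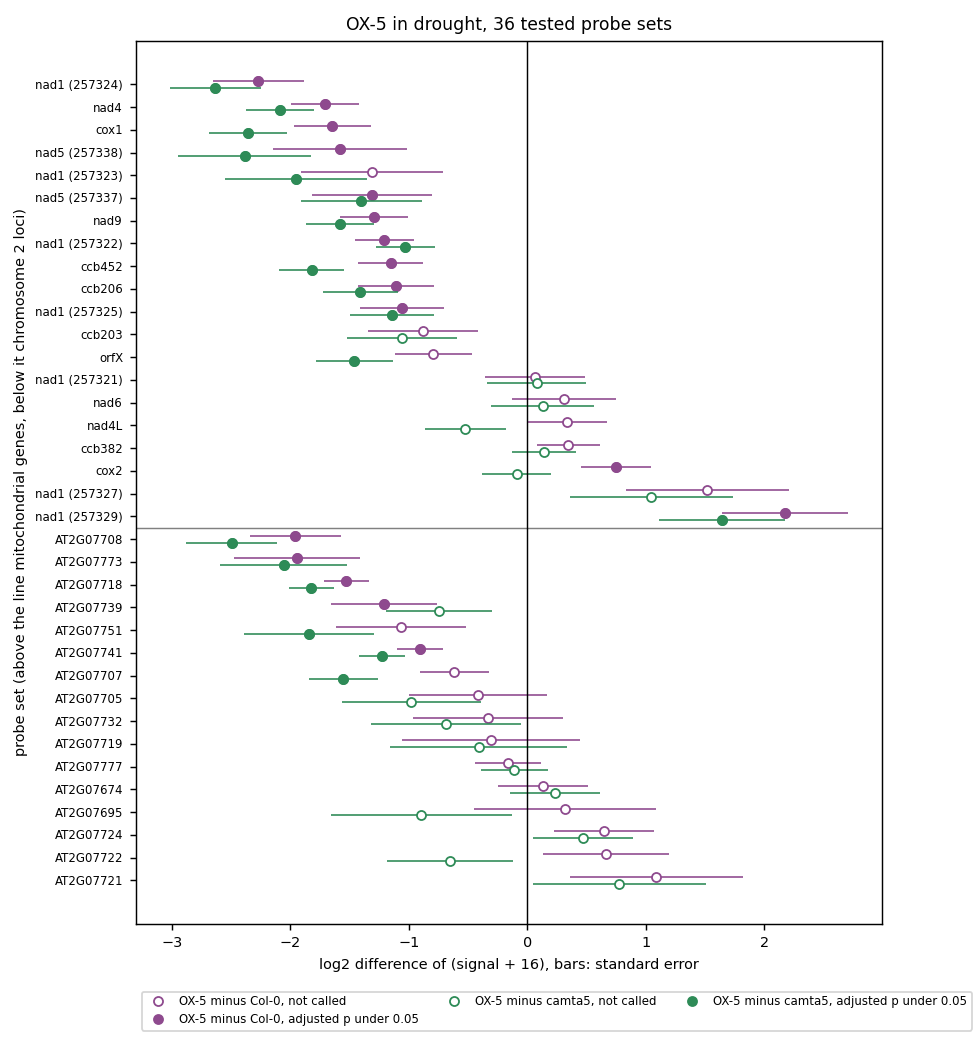
OX-5 minus Col-0 and OX-5 minus the arrays labelled camta5, all in drought, as log2 differences of signal plus 16 (x axis) for each of the 36 tested members (y axis, mitochondrial genes above the line and chromosome 2 loci below it), with standard errors as bars and filled points for calls. Most calls lie between -1 and -3, with cox2 and 1 nad1 probe set as the calls above 0. That nad1 probe set, 257329_at, was tested only because it was high in OX-5.

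The 7 probe sets annotated to nad1 differed in which comparisons called them. nad1 encodes a membrane subunit of complex I, and its messenger is assembled by trans-splicing from separately transcribed pieces. The files do not say which piece each probe set reads. Over the 14 arrays the pairwise Pearson correlations of their log2 signals ran from -0.66 to 0.89, with a median of -0.10, a description of 21 pairs that share these arrays and their group differences. Among 257322_at, 257323_at, 257324_at and 257325_at every pair correlated above 0, at 0.14 to 0.89. The lowest value was between 257323_at and 257329_at, and 257329_at and 257327_at exceeded the 40th percentile on only 2 and 4 arrays.

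The probe set 257322_at read 213, 152 and 149 with water and 323, 207 and 286 in drought in Col-0, a difference of 0.62 ± 0.22 in the opposite direction to 257323_at (limma, adjusted p = 0.0522, not called). It was called higher under 8 alternatives, 4 of them without 1 array (adjusted p from 0.0342 to 0.0462). In OX-5 it read 126 and 90.0, lower than droughted Col-0 by 1.21 ± 0.25 (limma, adjusted p = 0.00113). 257324_at read 244, 203 and 196 in droughted Col-0 and 9.98 and 71.1 in OX-5, and was lower by 2.27 ± 0.39 (limma, adjusted p = 0.000251). Both its OX-5 values lay under the 40th percentile of their arrays. The size of its difference rested on this uneven OX-5 pair, at -1.40 without replicate 1 and -3.14 without replicate 2. Against the arrays labelled camta5, 257323_at was lower in OX-5 by 1.95 ± 0.60 (limma, adjusted p = 0.0169), a call that ended without camta5 drought replicate 1 (0.0656) or OX-5 replicate 2 (0.142). 257325_at was lower in OX-5 than in droughted Col-0 by 1.05 ± 0.35 (limma, adjusted p = 0.024), but by 0.30 without OX-5 replicate 1 (limma, adjusted p = 0.457), and the call ended under 4 alternatives.

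257329_at went the other way. It read 40.1, 21.0 and 5.91 in droughted Col-0, 23.7, 36.3 and 50.3 on the droughted arrays labelled camta5 and 141 and 149 in OX-5, a rise of 2.17 ± 0.53 over Col-0 (limma, adjusted p = 0.00385) and 1.64 ± 0.53 over camta5 (0.0223). The 2 OX-5 arrays were also the only ones on which it exceeded the 40th percentile, so it was tested because it was high there, and the call against camta5 ended under 3 alternatives (adjusted p from 0.0596 to 0.112). 257321_at and 257327_at were not called in any comparison, although 257327_at was called higher in OX-5 than in droughted Col-0 with the replicate number as a block (1.75, limma, adjusted p = 0.0262) and without camta5 drought replicate 2 (0.0453).

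The 2 nad5 probe sets, for another membrane subunit with a trans-spliced messenger, also differed. 257338_s_at read 973, 315 and 306 with water and 168, 134 and 212 in drought in Col-0, while 257337_at read 37.1, 95.3 and 42.0 and 82.8, 108 and 109. Their differences were -1.35 ± 0.50 and 0.72 ± 0.46, opposite in sign and neither called (limma, adjusted p = 0.0593 and 0.259). Both were lower in OX-5 than in droughted Col-0, at 19.3 and 91.8 and 79.5 and 6.60, by 1.58 ± 0.56 (limma, adjusted p = 0.0321) and 1.31 ± 0.51 (0.0465). The OX-5 replicates disagreed in each, and all but the value of 91.8 lay under the 40th percentile of their arrays. The call of 257338_s_at ended under 5 alternatives (adjusted p from 0.0501 to 0.371, the highest without OX-5 replicate 1). That of 257337_at ended under 16 (adjusted p from 0.0509 to 0.658, the highest without OX-5 replicate 2).

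**Figure D5:**
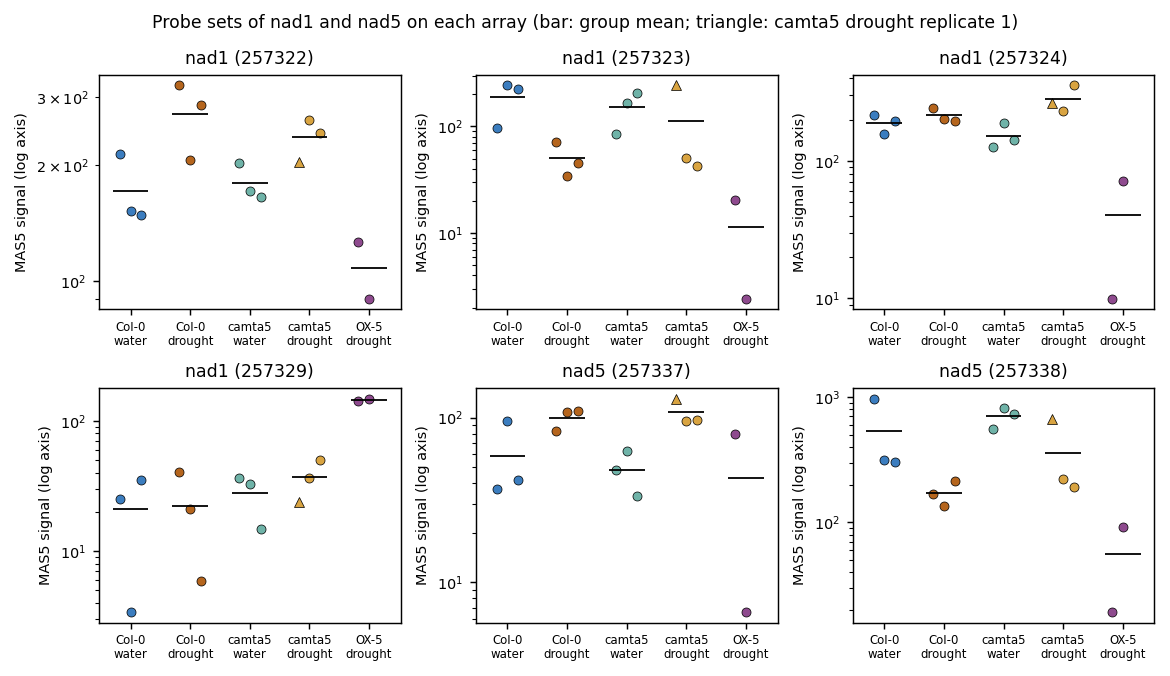
MAS5 signal (y axis, log scale) of 4 nad1 and both nad5 probe sets in the 5 groups (x axis), with 1 point per array, a bar at the group mean, and a triangle for camta5 drought replicate 1. 257322_at and 257323_at lie on opposite sides of their watered levels in droughted Col-0, and 257329_at lies highest in OX-5 where 257324_at lies lowest.

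The 12 shared probe sets read, among others, genes of the ATP synthase, complex III and the ribosome, each together with another gene that the signal could come from. Of these, 10 were tested. In droughted Col-0, 5 of 10 were lower, where 11.7% of all tested probe sets were, and 0 higher, with a median of -1.01. The probe set of atp1, the alpha subunit of the ATP synthase, and AT2G07698 read 6036, 4651 and 4225 with water and 1334, 901 and 982 in drought. It fell by 2.20 ± 0.37 (limma, adjusted p = 0.000856). That of rps4 and AT2G07734 fell by 2.29 ± 0.48, that of rpl5 and AT2G07725 by 2.21 ± 0.58, that of rps3 and rpl16 by 1.37 ± 0.35 and that of rpl2 and AT2G07715 by 0.83 ± 0.23, all for proteins of the ribosome. The last call ended without Col-0 water replicate 2 or drought replicate 2 (limma, adjusted p = 0.0647 and 0.0541). cob, the cytochrome b of complex III, with AT2G07727 read 276, 164 and 188 with water and 204, 189.7 and 139 in drought and differed by -0.20 ± 0.22.

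On the arrays labelled camta5, 0 of the 10 were called with drought by limma, 2 of them at an unadjusted p under 0.05, and droughted replicate 1 was again high. The atp1 probe set read 4187, 4186 and 4987 with water and 5619.8, 1502 and 1585 in drought, and without replicate 1 it fell by 1.51 (limma, adjusted p = 0.00044). In OX-5 the atp1 probe set read 1737 and 1319, 0.51 ± 0.41 from droughted Col-0, and was not called. Only the rps3 and rpl16 probe set was lower in OX-5 than in Col-0 among the 10 (by 1.56 ± 0.39, limma, adjusted p = 0.0044), a call that ended without OX-5 replicate 2 (adjusted p = 0.0502). Against camta5, 5 of the 10 were lower in OX-5, where 22.5% of all tested probe sets were.

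Nuclear genes of the same functions were read from fixed lists. Of 9 tested nuclear-encoded respiratory probe sets, 2 fell in droughted Col-0 and 0 rose, where 11.7% and 15.6% of all tested probe sets did. AT3G15640 read 854, 1258 and 905 with water and 398, 241 and 319 in drought and fell by 1.61 ± 0.22 (limma, adjusted p = 0.000241), and AT5G47030 fell by 0.60 ± 0.14 (limma, adjusted p = 0.00567). On the arrays labelled camta5 AT3G15640 fell by 1.14 ± 0.22 (limma, adjusted p = 0.0047). In OX-5, 5 of the 9 were higher than in droughted Col-0 and 2 lower, where 21.7% and 25% of all tested probe sets were. SDH2-2, an iron-sulphur subunit of complex II, read 1601 and 1465 in OX-5 against 565, 835 and 518 in droughted Col-0 and was higher by 1.27 ± 0.24 (limma, adjusted p = 0.00062). CYTC-2, a cytochrome c, read 1214 and 762 against 2647, 1909 and 1711 and was lower by 1.08 ± 0.23 (limma, adjusted p = 0.00136). CYTC6A, lower by 0.96 ± 0.20, entered this list by its name and is a plastid protein. The higher calls of AT3G15640 and CYTC-1 ended when arrays were centred on their medians (limma, adjusted p = 0.0739 and 0.116), as did those of FRO1 (0.0957) and SDH2-1 (0.0594).

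Of 4 tested alternative NADH dehydrogenases, which bypass complex I, NDB2 rose in droughted Col-0, from 540.0, 557 and 713 to 1117, 1176 and 1186, by 0.94 ± 0.21 (limma, adjusted p = 0.0054), and NDB1 was lower in OX-5 than in droughted Col-0 by 1.24 ± 0.21 (limma, adjusted p = 0.000214). Of 6 genes listed for mitochondrial stress, 2 had a probe set of 1 gene, AT2G21640 and AT5G51440. Both were higher in OX-5 than in droughted Col-0, by 2.20 ± 0.34 and 1.34 ± 0.31 (limma, adjusted p = 0.000115 and 0.00247). AT5G51440 also rose with drought on the arrays labelled camta5, by 0.88 ± 0.27 (limma, adjusted p = 0.0407), a call that ended under 8 alternatives (adjusted p up to 0.170), and neither was called in Col-0. Of 8 tested RNA-processing probe sets, 1 rose in droughted Col-0, where 15.6% of all tested probe sets did. This was AT5G46920, by 0.86 ± 0.26 (limma, adjusted p = 0.0257), and the call ended under 4 alternatives. In OX-5, 1 of the 8 was higher than in droughted Col-0, where 21.7% of all were. Of the 8, 6 lay below 0, where 8088 of all 15646 tested probe sets did. The higher one was OTP43, a splicing factor of mitochondrial introns, with low signals of 31.9, 42.2 and 19.8 in droughted Col-0. It differed by 1.67 ± 0.53 (limma, adjusted p = 0.0189), a call that ended without Col-0 drought replicate 3 or OX-5 replicate 1. Against camta5, 0 of the 8 were higher and 2 lower in OX-5, where 20.2% and 22.5% of all were. That list was filled by name and includes OTP factors that act in plastids. The alternative oxidase genes had no probe set of 1 gene, and the only organellar RNA polymerase probe set was not tested.

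The plastid genome was read by 69 probe sets, of which 39 were lower in droughted Col-0 and 0 higher, where 11.7% and 15.6% of all tested probe sets were, with a median of -0.94. In OX-5, 34 were lower than in droughted Col-0 and 2 higher, where 25% and 21.7% of all were, with a median of -1.02. For the member with the highest mean log2 signal in each of the 6 roles, a choice of which to describe and not a comparison of their levels, the 5 probe sets most like it over the 14 arrays were looked up. For cox1 these were the plastid genes ycf4, atpF, petL, accD and ndhK, with Pearson correlations of 0.98 for each, and for orfX the plastid genes rpl20, ycf4, accD, cemA and petL, with 0.97 to 0.98. For nad4 they were the plastid genes matK and psaI and 3 nuclear loci, at 0.97, and for AT2G07751 the plastid genes petA, rpl16, rps15 and accD and 1 nuclear locus, at 0.95 to 0.96. For ccb452 they were 3 nuclear loci and the plastid genes ndhJ and atpA, at 0.94 to 0.95, and for matR, which was too low to be tested, 5 nuclear loci at 0.74 to 0.81. Over all tested probe sets the correlation with cox1 had a median of -0.05, over the 19 other mitochondrial probe sets 0.52, and over the plastid ones 0.91. These values describe 14 arrays whose largest differences are between groups, with the 2 OX-5 arrays at one end.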

How the data were processed

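Leaf RNA of 14 samples was measured on ATH1 arrays, biotin-labelled from 250 ng of total RNA per the labels' protocols. Whether that labelling reads organelle RNA evenly was not tested. The deposited values are linear signal intensities, which the authors made with the MAS5 algorithm of the Affymetrix Expression Console software, per the submitters' processing notes (version not given in the sources used here). The mean with 2% trimmed at each end came to 500.0 to 500.1 on each array. Scan batches and detection calls were not used here. At most 2 values were identical between 2 arrays. The number of arrays limits the precision.

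Genes came from the platform annotation, in which 13513 probe sets have 1 gene, 503 several and 8794 (64 controls included) none. It gives mitochondrial genes by symbol without a locus number, so members were chosen by symbol and plastid genes of the same symbol were left out through the RefSeq table. Sequences and coordinates were not used here. The members and gene lists were chosen with earlier results of these data known.

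Groups followed the sample titles. Log2(signal + 16) was fitted for all 14 arrays with 5 group means in limma 3.58.1 (R 4.3.3, lmFit and eBayes with trend), over 15646 probe sets (those above the 40th percentile of their array on 2 or more arrays), in 7 comparisons, each with Benjamini-Hochberg adjustment. The fit was run on simulated data with independent errors and no array effects. That simulation cannot show how the fit handles arrays that stand apart, such as those of OX-5. Every member is accounted for. Named with values are the called members, though not for every comparison that called them, and some uncalled ones with large differences. Alternatives were the offset (1, 64), no filter or the 60th percentile, quantile normalization, median centring, moderation without trend or robust, only the compared arrays, the replicate number as a block, camta5 water replicate 1 counted as Col-0, leaving out each array, and, added after seeing the data, no OX-5 arrays. The deviations of same-numbered arrays from their group means correlated at -0.16 to 0.24, with 3 of 26 pairs over 0.1. The highest were those of Col-0 drought with camta5 drought, at 0.23 for replicate 1 and 0.24 for replicate 2, with -0.16 for replicate 3. With so few arrays a group, whether the numbers pair samples cannot be settled.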

Additional observations from a re-analysis of the deposited data

How the results depend on the processing

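Outside the leave-one-out fits, the number of called members stayed within 1.5 times the main count under every alternative. It ranged from 7 to 11 in droughted Col-0, from 2 to 4 on the droughted arrays labelled camta5, from 12 to 20 for OX-5 against Col-0 and from 13 to 20 for OX-5 against camta5, and was 0 in the 3 other comparisons. With the replicate number as a replicate block the counts were 7, 3, 16 and 19 and 0 in the others. Leaving out 1 array at a time gave 5 to 11 called members for drought in Col-0 (5 without Col-0 water replicate 2), 0 to 9 for drought on the arrays labelled camta5, 0 to 1 for camta5 against Col-0 in drought, 12 to 19 for OX-5 against Col-0, 14 to 19 for OX-5 against camta5, and 0 in the other two. For drought on the arrays labelled camta5 the count was 0 without water replicate 1 or drought replicates 2 or 3, 1 without water replicates 2 or 3, and 9 without drought replicate 1. No direction of a called value reversed. Quantile normalization and median centring moved the median of all tested probe sets for OX-5 against Col-0 from -0.04 to -0.12 and -0.17, and that of the mitochondrial probe sets from -1.08 to -1.23 and -1.21. Against camta5 centring moved the median of all from -0.02 to -0.16. Over the tested values of single probe sets and all alternatives, 177 lost a call, 32 gained one and 3491 did neither. Leaving an OX-5 array out leaves 1 sample in that group, which is then assumed to vary like the others. Signals near the floor of the array carry little order.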
